A study of Rattus norvegicus with 30 samples.

Results

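Whole kidneys of rats given the high dose of mercury chloride were compared with kidneys of saline rats 10 h after dosing, and the transcripts were sorted into small shifts present in all 5 treated animals and large shifts present in 1 animal. The comparison holds 10 of the 30 libraries of the study, 5 labelled high dose HgCl2 at 10 h and 5 labelled vehicle at 10 h, and both sets were taken from the submitters' labels. Each library comes from 1 Sprague-Dawley rat. The treated animals had received 0.50 mg/kg HgCl2 and the controls 1 ml/kg of saline. The other 20 libraries cover a low dose of 0.25 mg/kg at 10 and 34 h, and the high dose and saline at 34 h, with 5 rats in each group. All 30 rats were of this outbred stock, and the labels name no other treatment. The sources used here give neither the age and sex of the rats nor the route of dosing. Whole frozen kidneys were powdered, so cortex and medulla were measured together, and in such bulk RNA fewer cells of a type and less RNA per cell cannot be told apart. The poly-A RNA libraries were stranded and were read in pairs.

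Inorganic mercury is taken up mainly by the epithelial cells of the proximal tubule, the stretch of the nephron that reabsorbs most of the filtrate. The mercuric ion binds thiol groups, among them those of glutathione and metallothionein, and it disturbs mitochondria and the redox balance of the cell. Death of tubular cells and renal failure follow at higher exposures.

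The deposited files identify transcripts by Ensembl IDs and do not pair them with genes, so no gene name or role is given here, and the tissue label was not checked against marker genes. The transcripts are described by level, length, direction and the animals in which they moved. The files hold 40071 transcripts, of which 21112 had enough counts to be tested. Transcript totals ran from 26.7 to 33.9 M estimated counts in the high dose libraries (31.0 ± 3.03 M) and from 27.7 to 32.5 M in the vehicle libraries (29.1 ± 2 M; SD, n = 5 each). The protocol names no molecular identifiers, so reads are not independent molecules, and the floors given for transcripts at 0 cover counting error only. The titles number the high dose libraries 56 to 60 and the vehicle libraries 36 to 40, so that a difference between these runs of numbers and an effect of the dose cannot be told apart.

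High dose replicate 2 stood apart from its group in several measures, and vehicle replicate 2 in a set of transcripts. High dose replicate 2 differed from the mean of the other 4 high dose libraries by 0.54 on average (absolute log2 difference over the transcripts tested), against 0.33 to 0.381 for the other high dose libraries and 0.337 to 0.365 for the 5 vehicle libraries. Its mean fragment length, read from the effective lengths in its file, was 251 bases, where the other high dose libraries had 222 to 224 bases and the vehicle libraries 224 to 235 bases. Vehicle replicate 2, at 0.365 and 235 bases, lay close to the other vehicle libraries in both measures. It had a large set of transcripts of its own, described further on. Several results that rest on either library are given with and without it, and the others only with it.

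Of the 21112 transcripts, 1 rose after the high dose and 0 fell at an adjusted p under 0.05 (edgeR's quasi-likelihood test with Benjamini-Hochberg adjustment), which is 0.00474% of those tested in the higher direction and 0% in the lower. At an unadjusted p under 0.05 there were 1540 higher transcripts (7.29%) and 1428 lower transcripts (6.76%). DESeq2 on the same counts called 438 higher and 537 lower, limma voom with quality weights called 4 higher and 7 lower, and a single edgeR fit over all 30 libraries called 24 higher and 38 lower. The number of calls therefore moved with the tool, and the accounts that follow rest on the values of the single animals.

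The transcript that rose was ENSRNOT00000001792, 1403 bases long, whose estimated counts were whole numbers in every library. It had 33.0, 31.4, 29.3, 31.5 and 34.6 CPM (estimated counts scaled to library size after TMM normalization) in the high dose kidneys, against 20.1, 17, 20.6, 20.7 and 20.8 CPM in the vehicle kidneys. Each of the 5 treated animals lay above each of the 5 controls, and the lowest treated value was 1.41 times the highest control value. The means were 32.0 ± 1.96 CPM after the high dose and 19.8 ± 1.62 CPM after vehicle (SD, n = 5 each), and the fitted log2 fold change of 0.69 (SE 0.08) had an adjusted p of 0.0473 by edgeR. The call was lost when any 1 of the 10 libraries was left out, with log2 fold changes of 0.63 to 0.71, and also without high dose replicate 2 and vehicle replicate 2 together (0.63, edgeR adjusted p = 0.0865). With all 10 libraries it was also lost by limma on log2(TPM + 1) (adjusted p = 0.0948), and by edgeR with DESeq2 size factors (0.06) or no filter (0.0602). It was kept by DESeq2 (adjusted p = 6.68e-15), by limma voom with quality weights (0.0227) and in the edgeR fit of all 30 libraries (0.0338). By edgeR it was also kept with whole counts only (0.012) and with a filter of 5 CPM (0.0343).

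In the other groups ENSRNOT00000001792 was near the vehicle level. On the scale of all 30 libraries it averaged 21.8 ± 2.60 CPM in low dose kidneys and 32.2 ± 1.98 CPM in high dose kidneys at 10 h, beside 20 ± 1.64 CPM in vehicle kidneys (SD, n = 5 each). The low dose differed from vehicle by 0.13 (SE 0.09, edgeR adjusted p = 0.673), and the high dose from the low dose by 0.55 (SE 0.09, edgeR adjusted p = 0.0835), both on the log2 scale. Both doses were set against the same 5 vehicle libraries, and this transcript was chosen for its difference between the high dose and these. Its difference between the 2 doses is thus partly set by the choice. At 34 h the transcript averaged 20.8 ± 6.07 CPM after the high dose and 24.2 ± 1.39 CPM after vehicle, with a log2 fold change of -0.22 (SE 0.18; adjusted p by edgeR 0.855). The change of the high dose effect between the times was -0.91 (SE 0.21, edgeR adjusted p = 0.229), which did not pass the test.

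Shifts shared by all 5 animals were sought as transcripts whose groups did not overlap. In 396 transcripts (1.88% of those tested) all 5 high dose libraries lay above all 5 vehicle libraries, and in 385 (1.82%) all 5 lay below. Both are shares of all transcripts tested, and the share to be met without an effect of the dose is not given here. The edgeR test called 1 of the 396 and 0 of the 385. The shifts were small. The higher set had a median log2 fold change of 0.33 with quartiles of 0.24 and 0.48, and 331 of its 396 members (83.6%) differed by less than 1.5-fold. The lower set had a median of -0.34 with quartiles of -0.50 and -0.24, and 321 of its 385 members (83.4%) differed by less than 1.5-fold. Over all transcripts tested the median was 0.01, with quartiles of -0.15 and 0.17.

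The gap between the groups was narrow in most of these transcripts. The lowest treated animal lay a median of 0.04 above the highest control in the higher set, and the highest treated animal a median of 0.05 below the lowest control in the lower set, both on the log2 scale. Fitted fold changes over 2-fold were found in 14 higher and 23 lower members.

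The shared sets held more abundant transcripts than the rest. Median levels were 25.8 CPM in the higher set and 36.0 CPM in the lower set, beside 9.98 CPM over all transcripts tested. Among the 5958 transcripts of 20 to 100 CPM, 197 (3.31%) were higher in every treated animal and 168 (2.82%) lower. Among the 3887 transcripts under 1 CPM, 19 were higher and 19 lower. Per transcript length the 2 sets stood in the other order, with median TPM (counts scaled to length and library) of 22.6 in the higher set and 12.8 in the lower set, against 6.14 over all.

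The treated animals did not contribute equally. Replicate 2 was the animal farthest from the controls in 166 of the 396 higher transcripts and in 177 of the 385 lower transcripts. Replicate 4 was the farthest in 119 higher and 110 lower transcripts, replicate 5 in 67 and 35, replicate 1 in 23 and 36, and replicate 3 in 21 and 27. The median log2 difference from the vehicle mean over the higher set was 0.27, 0.38, 0.20, 0.35 and 0.30 in high dose replicates 1 to 5, and over the lower set -0.27, -0.40, -0.23, -0.38 and -0.31. The sign and the rough size were thus alike in all 5, as the choice of the sets requires of the sign.

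The low dose libraries, which took no part in the choice of these transcripts but are set against the same vehicle libraries, lay closer to vehicle. Over the higher set the 5 low dose kidneys at 10 h had median log2 differences of 0.09, 0.02, 0.10, 0.13 and -0.08 from the vehicle mean. Over the lower set they had -0.12, -0.07, -0.10, -0.05 and -0.01. All 5 low dose kidneys were below the 5 high dose kidneys in the size of both medians. The choice set the high dose kidneys apart from vehicle, so this order is partly fixed by it and is a description.

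At 34 h, in other animals, the shared sets were not displaced in the same direction. The higher set had a median log2 fold change of -0.03 between high dose and vehicle kidneys (quartiles -0.12 and 0.06), and 155 of 396 (39.1%) were higher after the high dose, against 50.3% of all transcripts tested. The lower set had a median of 0.03 (quartiles -0.07 and 0.12), and 222 of 385 (57.7%) were higher. At this time edgeR called 0 of 21112 transcripts at an adjusted p under 0.05, with 725 higher (3.43%) and 440 lower (2.08%) at an unadjusted p under 0.05. A test of the change of the high dose effect between the times called 2 of 21112 transcripts (0.00947%).

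The 10 higher and 10 lower shared transcripts of lowest p, among those averaging at least 5 CPM, show what such a shift looks like in single animals. The 10 higher ones had log2 fold changes of 0.34 to 0.69, and their lowest treated animal was 1.06 to 1.41 times the highest control. The 10 lower ones had log2 fold changes of -0.92 to -0.32, with the lowest control at 1.04 to 1.38 times the highest treated animal. Except for ENSRNOT00000001792 none passed the test, with edgeR adjusted p-values of up to 0.174 in the higher order and of 0.174 for all 10 of the lower order.

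**Figure D1:**
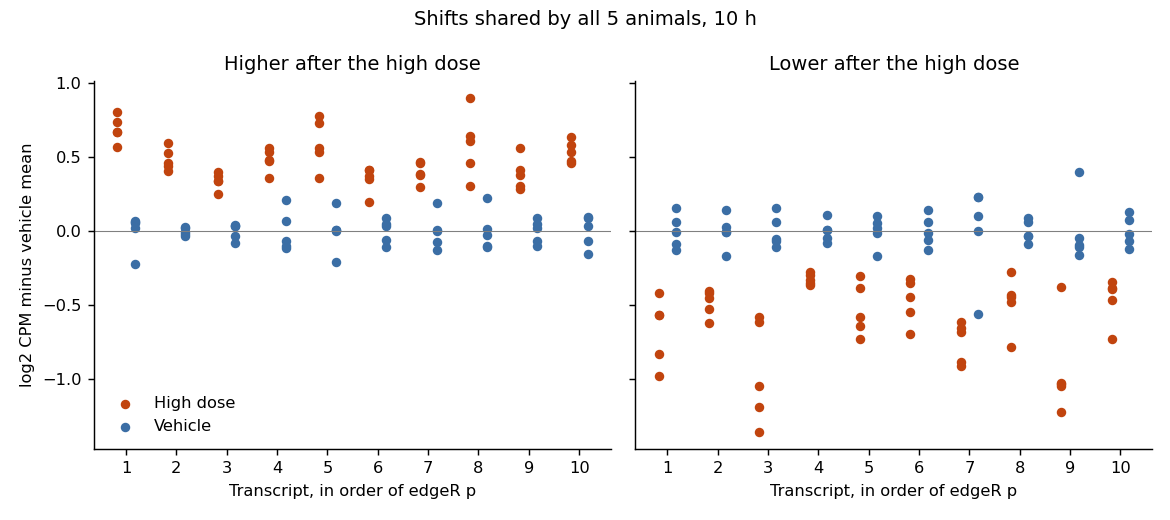
Level of the 10 higher (left) and 10 lower (right) shared transcripts of lowest edgeR p, as log2 CPM minus the vehicle mean, with 1 point for each of the 5 high dose kidneys (orange, left of each tick) and 5 vehicle kidneys (blue) at 10 h. The orange and blue points do not overlap for any of the 20 transcripts, which is how they were chosen, and most orange points lie within 1 log2 unit of the vehicle mean.

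Among the higher transcripts, the second in order, 2501 bases long, was tight in both groups. It had 15.7, 17.9, 16.3, 16.1 and 17.1 CPM in high dose kidneys, against 11.7, 12, 12.1, 11.6 and 11.8 CPM in vehicle kidneys. Its log2 fold change of 0.49 (SE 0.06) had an edgeR adjusted p of 0.126. The whole vehicle group spanned less than the distance to the lowest treated animal.

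The fourth higher transcript, 1936 bases long and with whole counts, was more abundant. It had 174, 154, 168, 167 and 177 CPM in high dose kidneys and 126, 115, 111, 112 and 139 CPM in vehicle kidneys. Here the highest control, replicate 5, came closer to the lowest treated animal, replicate 2, and the log2 fold change of 0.48 (SE 0.07) had an edgeR adjusted p of 0.174.

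ENSRNOT00000016577, 1945 bases long, led the lower transcripts. It had 86.1, 64.9, 86.2, 71.7 and 95.6 CPM in high dose kidneys, against 117, 127, 142, 120 and 133 CPM in vehicle kidneys. All treated animals were below all controls, and replicates 2 and 4 were the lowest. The means were 80.9 ± 12.4 CPM after the high dose and 128 ± 9.82 CPM after vehicle (SD, n = 5 each), and the log2 fold change of -0.66 (SE 0.11) had an edgeR adjusted p of 0.174. It passed the threshold by DESeq2 (adjusted p = 8.32e-07), by limma voom with quality weights (0.0494) and in the edgeR fit of all 30 libraries (0.0302). Its counts were not whole in every library, so part of them was shared out among transcripts with common sequence.

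In the other comparisons ENSRNOT00000016577 was lower too, by less. The transcript was chosen for its difference between the high dose and vehicle libraries at 10 h. Both other comparisons at 10 h reuse some of these libraries, so their sizes are partly set by the choice. The libraries at 34 h took no part in it. The low dose differed from vehicle at 10 h by -0.18 on the log2 scale (SE 0.12, edgeR adjusted p = 0.658), and the high dose from the low dose by -0.49 (SE 0.14, edgeR adjusted p = 0.156). At 34 h it averaged 103 ± 16.3 CPM in high dose kidneys and 121 ± 13.2 CPM in vehicle kidneys on the scale of all 30 libraries, which gave a log2 fold change of -0.23 (SE 0.12; adjusted p by edgeR 0.822). None of these differences passed the test.

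Other lower transcripts were longer. The third in order, 3445 bases long, had 17.8, 15.8, 27.1, 19.6 and 26.5 CPM in high dose kidneys, against 38.7, 42.2, 37.6, 39.0 and 45.1 CPM in vehicle kidneys. Replicates 1, 2 and 4 were lower than replicates 3 and 5, and the log2 fold change of -0.92 (SE 0.15) had an edgeR adjusted p of 0.174. The second in order, 3009 bases long, had 11.8, 13.6, 13.7, 13.3 and 12.6 CPM in high dose kidneys and 18.5, 18.1, 18.1, 16.2 and 20.1 CPM in vehicle kidneys (log2 fold change -0.48, SE 0.08). The sixth, a transcript of 10570 bases, had 90.7, 82.0, 106, 97.3 and 104 CPM in high dose kidneys and 127, 121, 146, 131 and 138 CPM in vehicle kidneys (log2 fold change -0.47, SE 0.08).

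Set against the low dose at 10 h, all 10 higher transcripts were higher and all 10 lower transcripts were lower in the high dose kidneys, with edgeR adjusted p-values of no less than 0.0765. The 20 were chosen by the values of these same high dose libraries, so their direction against the low dose is partly set by the choice. The low dose itself differed from vehicle by -0.21 to 0.50 in the higher order (7 of 10 higher) and by -0.28 to 0.06 in the lower order (4 of 10 higher), on the log2 scale. At 34 h the log2 fold changes of high dose over vehicle ranged from -0.22 to 0.31 (5 of 10 higher) and from -0.45 to 0.59 (3 of 10 higher), and the lowest edgeR adjusted p was 0.822. The change between the times did not pass the test for any of the 20, with adjusted p-values from 0.229.

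The shared sets differed in transcript length, a feature that their choice did not use. The median length was 1600 bases in the higher set and 3251 bases in the lower set, beside 2095 bases over all transcripts tested. When the 21112 transcripts were cut into 10 classes of equal size by length, the median log2 fold change was 0.12 in the shortest class (median 515 bases), 0.03 in the fifth and -0.10 in the longest (median 6013 bases). The shortest class held 44 of the higher and 15 of the lower shared transcripts, the third shortest 69 and 20, and the longest 15 and 85. Over the 12948 transcripts averaging at least 5 CPM, Spearman's rho of log2 fold change with length was -0.33 across transcripts, which share their libraries and are not replicates. Without high dose replicate 2 rho was -0.39, taken from differences of mean log2 CPM.

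In single libraries the slope was not uniform. Spearman's rho of transcript length with a library's log2 difference from the mean of the 10 libraries was -0.18, 0.03, 0.04, -0.26 and -0.13 in high dose replicates 1 to 5, and -0.05, 0.16, 0.20, 0.12 and 0.06 in vehicle replicates 1 to 5. Replicates 1, 4 and 5 of the high dose lay below every vehicle library, while replicates 2 and 3 lay within the vehicle range. The means were -0.10 ± 0.13 after the high dose and 0.10 ± 0.10 after vehicle (SD, n = 5 each; two-sided exact permutation test p = 0.0317, Benjamini-Hochberg adjusted p = 0.222 over 7 measures compared between the groups), and the smallest p such a design allows is 0.00794.

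**Figure D2:**
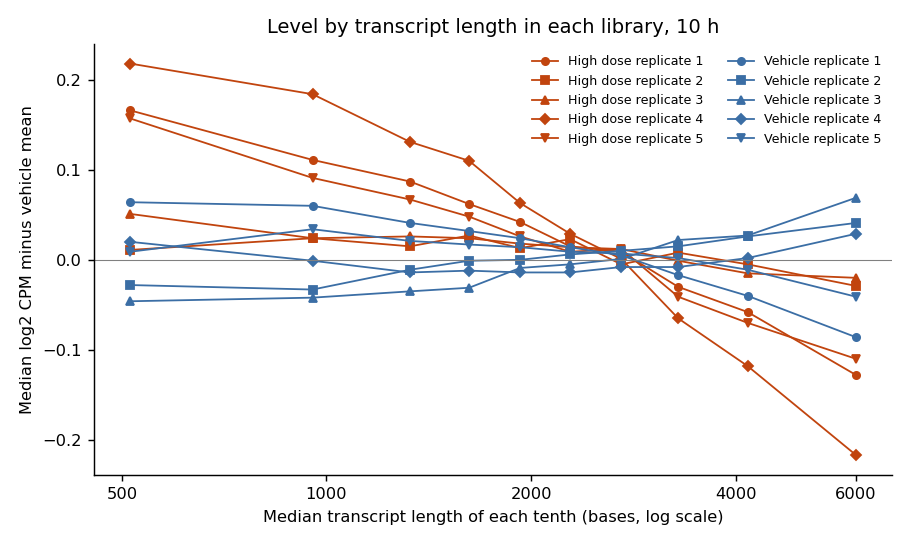
Median log2 CPM minus the vehicle mean (vertical axis) in 10 classes of transcript length (median length of each class in bases, log axis), with 1 line for each of the 5 high dose (orange) and 5 vehicle (blue) libraries at 10 h. High dose replicates 1, 4 and 5 run from above 0.15 in the shortest class to below -0.10 in the longest, and replicates 2 and 3 stay close to the vehicle libraries.

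The sign of this relation was not the same in the other comparisons. At 34 h Spearman's rho of log2 fold change, high dose over vehicle, with length was 0.22, and for the low dose over the same vehicle libraries at 10 h it was 0.23, in both over the transcripts averaging at least 5 CPM. Length moved with the shared shifts at 10 h. With each library's trend with length removed, the groups did not overlap in 356 higher and 342 lower transcripts, beside 396 and 385 before. ENSRNOT00000001792 then had a log2 fold change of 0.63 and an edgeR adjusted p of 0.0783. The 10 higher transcripts described above were 1086 to 2997 bases long and the 10 lower ones 1945 to 10570 bases.

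Differences of more than 2-fold between the group means were of another kind. There were 310 higher (1.47% of those tested) and 415 lower transcripts (1.97%), and edgeR called 0 of them. In 10 of the 310 and 23 of the 415 the 5 treated animals were separated from the 5 controls. Over all transcripts tested the shares so separated were 1.88% higher and 1.82% lower. The choice by group difference favours separation, so these counts are a description. Low levels made up much of both groups, since 170 of the higher and 222 of the lower transcripts averaged under 1 CPM.

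Many of these large differences fell under 2-fold without 1 library, in either group. Leaving out the farthest library tends to shrink a difference by construction, so transcripts just over 2-fold can drop out without being carried by 1 animal. Without the high dose library farthest from the vehicle mean, 169 of the 310 higher transcripts stayed over 2-fold and 141 did not. Of the 415 lower transcripts 197 stayed and 218 did not. Without the farthest vehicle library, 154 of the higher transcripts stayed and 156 did not, and 206 of the lower stayed and 209 did not. Replicate 2 was the farthest library for 119 of the higher transcripts, and 61 of these dropped out without it. For the lower transcripts high dose replicate 1 was the farthest most often, in 131, followed by replicate 2 in 126, of which 66 dropped out without it. On the vehicle side, replicate 2 was the farthest library for 116 of the lower transcripts, and 74 of these dropped out without it. Among transcripts averaging at least 5 CPM there were 53 higher and 57 lower, of which 29 and 24 stayed without the farthest high dose library. The groups did not overlap in 3 of the 53 and 0 of the 57. Of all 12948 tested transcripts at that level, they did not overlap in 337 higher and 329 lower ones.

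Shifts confined to 1 animal were then counted as transcripts in which 1 library lay more than 2-fold beyond all 9 others. High dose replicates 1 to 5 had 24, 350, 12, 18 and 13 such transcripts on the higher side, against 20, 236, 25, 90 and 16 in vehicle replicates 1 to 5. On the lower side they had 47, 203, 59, 89 and 79, against 78, 52, 79, 54 and 96 in vehicle. Replicate 2 of each group thus had the most on the higher side, 1.66% of the transcripts tested in the high dose animal and 1.12% in the vehicle animal, and high dose replicate 2 also had the most on the lower side (0.962%).

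The number of single-animal shifts did not differ between the groups beyond the spread between animals. On the higher side the means were 83.4 ± 149 after the high dose and 77.4 ± 93.7 after vehicle (SD, n = 5 each; two-sided exact permutation test p = 0.952, adjusted p = 0.952). On the lower side they were 95.4 ± 62.4 after the high dose and 71.8 ± 18.6 after vehicle (exact permutation test p = 0.619, adjusted p = 0.952). The medians on the higher side were 18 transcripts after the high dose and 25 after vehicle.

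**Figure D3:**
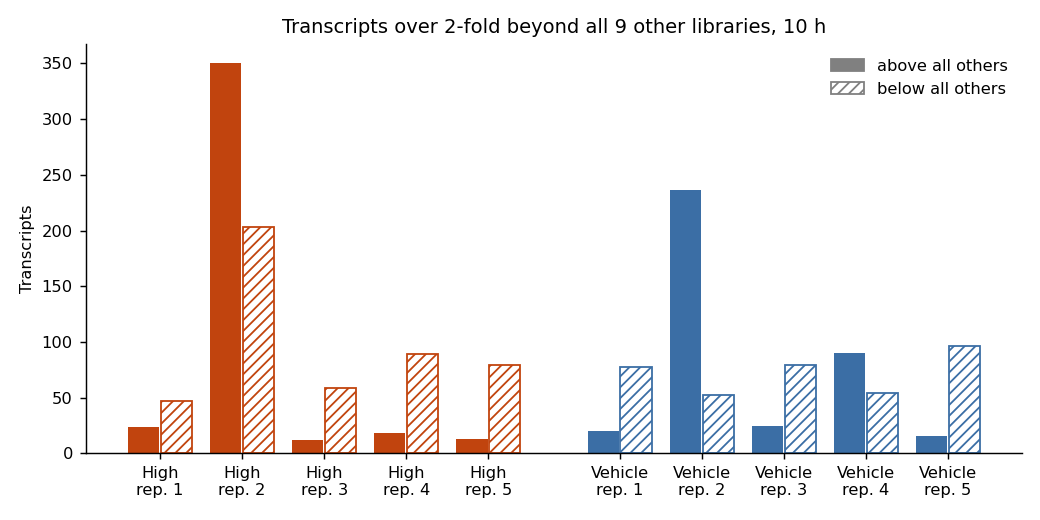
Number of transcripts in which 1 library lay more than 2-fold above (solid bars) or below (hatched bars) all 9 other libraries at 10 h, for the 5 high dose (orange) and the 5 vehicle (blue) libraries. High dose replicate 2 with 350 and 203 transcripts and vehicle replicate 2 with 236 on the higher side exceed the other libraries.

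The spread among animals moved with high dose replicate 2. The median SD of log2 CPM over the transcripts tested was 0.269 in the high dose group and 0.194 without replicate 2. In the vehicle group it was 0.197, and 0.190 without vehicle replicate 2. Without high dose replicate 2 and vehicle replicate 2, 828 higher and 919 lower transcripts did not overlap between the remaining 4 and 4 animals, a count that such smaller groups reach more easily. With 1 library left out, the count of non-overlapping transcripts moved by more than 1.5 times without high dose replicate 1 (582 lower), replicate 2 (686 higher, 731 lower), replicate 3 (779 higher, 729 lower) and vehicle replicate 1 (752 higher, 638 lower). Group differences over 2-fold numbered 405 higher and 462 lower without both replicates 2, beside 310 and 415 with them.

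The 350 transcripts higher in high dose replicate 2 were of middling abundance, with a median of 6.03 CPM over the 10 libraries, and 180 of them averaged at least 5 CPM. Both values include replicate 2, the library in which they were chosen as high, and are raised by it. Their median length was 2052 bases, close to that of all transcripts, and 118 (33.7%) had whole counts, against 39.1% of those tested. They made up 6.59% of the CPM of the tested transcripts in that kidney, against 1.32 to 1.44% in the other 4 high dose kidneys and 1.18 to 1.27% in the vehicle kidneys. At more than 4-fold beyond the others there were 84 higher and 39 lower transcripts in this animal, against 178 higher and 14 lower in vehicle replicate 2.

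The 350 transcripts were chosen as higher in replicate 2 than in all 9 other libraries, so the choice itself sets replicate 2 apart from the other 4 high dose animals, and the values at 10 h are a description. Over the 350 transcripts the median log2 difference from the vehicle mean was 2.05 in replicate 2, and 0.07, 0.07, 0.00 and 0.03 in replicates 1, 3, 4 and 5. Their mean was above the vehicle mean for 198 of the 350 (56.6%), against 51.3% of all transcripts tested. The group comparison called 0 of the 350 by edgeR.

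ENSRNOT00000009556, 2202 bases long, had the largest gap. It had 0, 453, 0, 0 and 0 CPM in high dose replicates 1 to 5 and 0 CPM in all 5 vehicle kidneys. Replicate 2 held 12262 estimated counts of it, and against a floor of 3 counts per library (0.0891 to 0.110 CPM in the 9 libraries at 0) this was at least 4120-fold higher. The group comparison gave an edgeR adjusted p of 0.385. Outside these 10 libraries it was 0 in all low dose kidneys at 10 h, and at 34 h it was found in 6 libraries, among them vehicle replicates 2 and 5 with 33.0 and 19.3 CPM and high dose replicate 5 with 8.30 CPM. Counts of it therefore also occurred in animals without mercury, and they were not whole numbers in every library.

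Other transcripts of that kidney had a low level in every animal and a very high one in replicate 2. One of 1566 bases with whole counts had 7.26, 2100, 18.3, 8.18 and 11.9 CPM in high dose kidneys, against 7.59, 8.98, 7.24, 6.97 and 4.04 CPM in vehicle kidneys; replicate 2 was at 114 times the next library. One of 2456 bases had 28.3, 5010, 48.0, 38.3 and 38.0 CPM in high dose kidneys and 24.7 to 42.8 CPM in vehicle kidneys. One of 2101 bases had 19.2, 2410, 26.6, 13.5 and 15.9 CPM in high dose kidneys and 12.9 to 17.6 CPM in vehicle kidneys. In all 3, high dose replicate 3 was the second highest of the 10 animals, far below replicate 2.

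Of the 10 transcripts with the largest gaps, 9 belonged to replicate 2. The remaining one, of 4370 bases, had 8.40 CPM in replicate 4 and 0 in the other 9 libraries. Their edgeR adjusted p-values ran from 0.256 to 0.404, and 2 of the 10 had whole counts.

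Libraries that took no part in this choice held part of the same shift. Over the 350 transcripts, low dose replicates 1, 2 and 3 at 10 h had median log2 differences of 0.35, 0.39 and 0.76 from the vehicle mean, and low dose replicates 4 and 5 had 0.00 and 0.03. In low dose replicate 3, 137 of the 350 (39.1%) lay more than 2-fold above the vehicle mean. At 34 h the 5 high dose kidneys had medians of 0.09, 0.09, 0.55, 0.14 and 0.13, with the highest in replicate 3, the 5 low dose kidneys 0.05, 0.05, 0.23, 0.09 and 0.03, and the 5 vehicle kidneys -0.02 to 0.04. Between high dose and vehicle at 34 h the median log2 fold change was 0.24, and 272 of the 350 (77.7%) were higher, against 50.3% of all transcripts tested. At an unadjusted edgeR p under 0.05, 51 of the 350 were higher and 1 lower, and 0 were called. Over all transcripts tested 3.43% were higher and 2.08% lower at that threshold.

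The transcript of 1566 bases was high in some of these animals and in others. At 10 h it had 153, 119, 367, 9.99 and 5.75 CPM in low dose kidneys, on the scale of all 30 libraries. At 34 h it had 6.80, 8.92, 87.5, 10.0 and 34.8 CPM in high dose kidneys, and 8.15, 6.85, 25.6, 8.41 and 4.65 CPM in low dose kidneys, against 4.04 to 7.42 CPM in vehicle kidneys. Low dose replicates 1, 2 and 3 at 10 h, high dose replicates 3 and 5 at 34 h and low dose replicate 3 at 34 h thus stood above all vehicle kidneys and below high dose replicate 2 at 10 h. By less, high dose replicates 3 and 5 at 10 h (18.4 and 12 CPM) also exceeded the highest vehicle value of 9.04 CPM. So did low dose replicate 4 at 10 h (9.99 CPM) and high dose replicate 4 at 34 h (10.0 CPM). High dose replicate 5 at 34 h had a median of 0.13 over the 350 as a set, beside 0.14 in replicate 4.

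**Figure D4:**
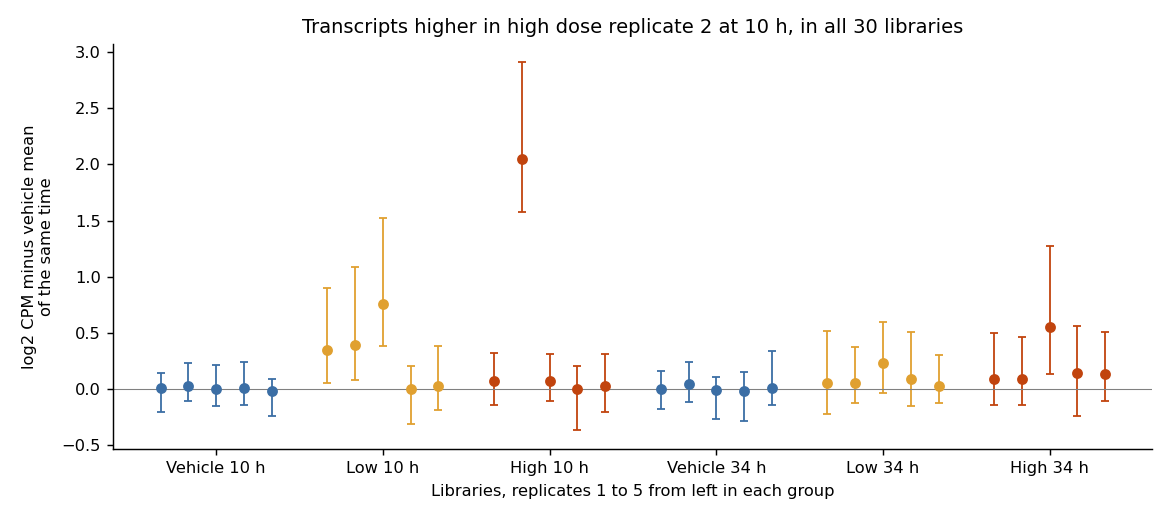
Median log2 CPM minus the vehicle mean of the same time over the 350 transcripts higher in high dose replicate 2 at 10 h, for each of the 30 libraries (points, bars from the lower to the upper quartile over transcripts), with groups ordered by dose within each time. High dose replicate 2 at 10 h was set high by the choice of the transcripts, low dose replicates 1 to 3 at 10 h and high dose replicate 3 at 34 h lie at 0.35 to 0.76, and the vehicle libraries lie at -0.02 to 0.04.

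The 203 transcripts lower in high dose replicate 2 were likewise chosen against the 9 other libraries at 10 h. Their median log2 difference from the vehicle mean was -2.12 in that kidney and -0.06 to 0.03 in the other 4 high dose kidneys, a contrast set by the choice. Low dose and 34 h libraries took no part in it. Low dose replicates 1, 2 and 3 at 10 h had -0.30, -0.34 and -0.40, and replicates 4 and 5 had 0.08 and -0.10. At 34 h the median log2 fold change of high dose over vehicle was -0.17. After the high dose 57 of the 203 (28.1%) were higher, against 50.3% of all transcripts tested. At an unadjusted edgeR p under 0.05, 1 of the 203 was higher and 6 were lower, beside 3.43% and 2.08% of all tested.

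Single low values were found in other treated animals as well. ENSRNOT00000090033, 1758 bases long, had 11.7, 80.1, 42.0, 0 and 12.8 CPM in high dose replicates 1 to 5, against 23.4, 31.1, 46.1, 41.7 and 21.5 CPM in vehicle replicates 1 to 5. Replicate 4 alone was at 0, and the next lowest library was at least 123-fold higher against the floor of 3 counts. The groups overlapped otherwise, with a log2 fold change of -0.16 (SE 0.98; adjusted p by edgeR 0.960), and the 5 vehicle kidneys at 34 h ranged from 1.5 to 78.1 CPM. The counts of this transcript were not whole, so their division among transcripts with common sequence enters these values.

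Of the 10 largest single low values, 6 were in replicate 2, 3 in replicate 4 and 1 in replicate 1 of the high dose. In 5 of them the animal had 0 counts, and 1 of the 10 had whole counts. An abundant one of 803 bases had 694, 633, 526, 32.9 and 556 CPM in high dose kidneys, against 646, 361, 579, 301 and 319 CPM in vehicle kidneys. The log2 fold changes of the 10 lay between -0.61 and 0.47 and the edgeR adjusted p-values between 0.749 and 0.966.

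The set of vehicle replicate 2 gives the measure of a single-animal shift without mercury. Its 236 transcripts had a median log2 difference of 3.70 from the vehicle mean in that kidney, against -0.88 to -0.18 in the high dose kidneys and -1.14 to -0.78 in the other vehicle kidneys, again a contrast set by the choice. They held 2.37% of the CPM of the tested transcripts there, against 0.0869 to 0.112% in the high dose kidneys. With this control included, the median difference of mean log2 CPM, high dose minus vehicle, was -0.57 over the 236, with 1 transcript more than 2-fold higher and 51 more than 2-fold lower. Without it the median was 0.22, with 62 higher and 4 lower by that measure. At 34 h the same transcripts stood 2.37 above the vehicle mean in high dose replicate 5 and 2.28 above it in low dose replicate 4, so they were high in 1 animal each of 3 groups.

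The transcripts of these 2 animals overlapped little more than their shares of all transcripts. Replicate 2 of the high dose lay more than 2-fold above its own 4 group members in 648 transcripts (3.07%), and replicate 2 of the vehicle above its own in 320 (1.52%). These lists had 14 transcripts in common, 2.16% of the first list, beside 1.52% of all transcripts tested in the second list, and 4.38% of the second, beside 3.07% of all tested in the first.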

How the data were processed

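RNA of 30 rat kidneys was sequenced, and the 10 libraries of the high dose and of vehicle at 10 h were compared. The deposited files, per the file headers, give an estimated count and a TPM value for each target. They were made with kallisto 0.42.2 on Rnor_6.0, per the submitters' processing notes; the sources used here give neither annotation release nor options. Estimated counts of a read pair that matches several targets are shared among them, and 21848 transcripts had whole counts everywhere (within 1e-06). Genomic intervals, 25095 further targets of unstated origin, held 5.96 to 6.93% of the counts in high dose libraries and 6.35 to 8.86% in vehicle libraries and were left out. The reference table held 0 cells with these transcript IDs, so the planned gene lists and markers were not run, and no sequence could be assigned. The submitters' labels call the libraries of a group replicates, and their numbers here follow accession order. No pair within a group agreed within sampling noise (lowest chi-square per degree of freedom 13.5 over 20 pairs).

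Estimated counts were rounded. Transcripts kept by filterByExpr over all 30 libraries were fitted with edgeR 4.0.16 (TMM, robust quasi-likelihood test, R 4.3.3), and p-values were adjusted over all 21112. SE is the log2 fold change divided by the square root of F. CPM follow TMM over the 10 libraries unless the scale of 30 is named, and log2 CPM use a prior count of 2. Single values of libraries were compared by two-sided exact permutation tests. The test was checked on simulated counts. Alternatives used DESeq2 1.42.0, limma 3.58.1, other filters, log2(TPM + 1) of the authors' TPM, other prior counts and left-out libraries; removal of the length trend and of both replicates 2 was added after seeing the data. IDs were printed for the lowest p among non-overlapping transcripts and the largest single-animal gap (5 CPM or more), 1 in each direction. The transcripts, lists and rules were chosen with earlier results of these data known.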

Additional observations from a re-analysis of the deposited data

Results flagged for a closer look

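Of 22 sets of 5 values examined, 7 had 1 library far from the other 4 of its group by Dixon's criterion. Chance meets this criterion in about 1 of 20 sets of independent, normally distributed values. Not all of the 22 were of that kind, since some were counts and several describe the same libraries. The vehicle set of ENSRNOT00000009556, all at 0, could not meet it. In 5 of the 7 the library was high dose replicate 2. It had 350 transcripts more than 2-fold above all other libraries, against 12 to 24 in the other high dose libraries, and 203 below, against 47 to 89. Its mean fragment length was 250.6 bases, against 222.1 to 224.5. Its mean absolute log2 distance to its group was 0.54, against 0.33 to 0.381. Its level of ENSRNOT00000009556 was 453 CPM, against 0 in the others; this transcript was chosen for its gap in that library, so its place among the 7 was fixed by the choice and is not to be set against the chance rate. Fragment length moved with the transcripts of this library, and its part in them was not tested.

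Vehicle replicate 4 had 8.86% of its counts on genomic intervals, against 6.345 to 6.81% in the other vehicle libraries. Vehicle replicate 2 had 17 CPM of ENSRNOT00000001792, the only transcript called, against 20.1 to 20.8 CPM in the other vehicle libraries. Without vehicle replicate 2 that call was lost, as it was without any other library of the 10.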

How the results depend on the processing

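The count of called transcripts (1 higher, 0 lower) was 0 higher with DESeq2 size factors, with limma on log2(TPM + 1), with no filter, with the length trend removed and without both replicates 2; it was 438 higher and 537 lower by DESeq2, which set aside 5544 transcripts, 4 and 7 by limma voom, and 24 and 38 in 1 fit of 30 libraries. With 1 library left out it was 0 to 1 in each direction. Non-overlapping transcripts (396 higher, 385 lower) numbered 177 and 194 with whole counts only, 828 and 919 without both replicates 2, and 445 to 779 and 486 to 731 with 1 library left out. Single-animal shifts summed over the high dose libraries (417 higher, 477 lower) numbered 255 and 113 on log2(TPM + 1), 205 and 163 with a filter of 5 CPM, 131 and 95 with whole counts, 94 and 120 at 4-fold, 242 lower with a prior count of 8, and 90 to 479 and 320 to 553 with 1 library left out. Group differences over 2-fold (310 higher, 415 lower) numbered 48 and 54 on log2(TPM + 1), 70 and 88 with 5 CPM, 26 and 70 with whole counts, 484 higher with a prior count of 0.5, 126 and 175 with one of 8, and 310 to 417 and 404 to 499 with 1 library left out. The log2 fold change of ENSRNOT00000009556 was 0 without high dose replicate 2 and without both replicates 2, and 14.74 at the most with 1 library left out. It was 26.2 by DESeq2, 1.6 by limma on log2(TPM + 1) and 0.53 by limma voom. The log2 fold change of ENSRNOT00000090033 was 0.03, 0.16 and 0.03 without high dose replicate 1, 4 or 5, and -1 without both replicates 2. With 1 library left out it ranged from -0.98 to 0.16. It was -1.12 by limma on log2(TPM + 1) and -2.55 by limma voom. The causes were not tested, except that fewer libraries or transcripts enter some settings by construction. The log2 fold change of ENSRNOT00000016577 lay between -0.73 and -0.60 in every setting fitted to it; whole counts only, other prior counts, thinning and the 4-fold limit gave it no value. No paired analysis was possible because the labels give the libraries no replicate numbers. With 5 animals a group, and levels under 1 CPM in 3887 transcripts, small shifts of rare transcripts could not be measured well.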
